A study of Homo sapiens with 60 samples.

Results

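SW1783 cells given the hot water extract of Polygalae Radix, the dried root of Polygala, were compared between the top dose of 250 µg/mL and the middle dose of 50 µg/mL, to see which transcripts changed further, changed only at that step, or turned back. The members are the 3 libraries labelled with the high dose and the 3 labelled with the medium dose, 6 of 60 libraries in all, taken from the dose in each title. SW1783 is an established human astrocytoma line, grown here in Leibovitz's L-15 medium with serum, and all cells were exposed for 24 h before RNA was extracted for sequencing of messenger RNA. Besides these 6 libraries, the 3 low dose libraries of the same extract at 10 µg/mL gave the step below, also 5-fold in dose, and 3 vehicle libraries gave the level without extract. The labels give the vehicle as 0.1% DMSO, while the series text gives 2%. That text sets the top dose of an extract at the concentration inhibiting 20% of cells where this lay under 500 µg/mL, with the lower doses diluted from it. All 9 extract libraries have names that start with the same number, which no label explains. The vehicle libraries have names that start otherwise, so extract and library numbering cannot be told apart in any comparison with vehicle. The labels give no DMSO content for the extract libraries, so extract and solvent cannot be told apart there either. All libraries are of 1 cell line, and no label says that replicates were separate cultures. Each p-value is thus set against the spread within groups over the 60 libraries alone, which may be technical.

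As background, Polygalae Radix is used in East Asian medicine and is rich in triterpenoid saponins. The gene groups followed here were chosen with earlier results of these data known. Collagens and other matrix proteins are folded in the endoplasmic reticulum and secreted. Actin, myosin and intermediate filaments shape the cell, and glycolytic enzymes make ATP from glucose. Lysosomes degrade what autophagy and endocytosis deliver, in a lumen acidified by the V-ATPase proton pump, and many lysosomal genes are switched on together by the factors TFEB and TFE3. NRF2 drives genes against oxidative stress, while ERK signalling induces its own phosphatases as feedback.

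Library totals ran from 19.559 to 29.226 M counts at the high dose and from 24.578 to 30.119 M at the medium dose (M, counts in units of 1e6). Transcripts of the mitochondrial genome took from 12.419% to 13.372% of counts at the high dose and from 9.931% to 11.636% at the medium dose, without overlap. Leaving those transcripts out gave 3126 changed genes against 3133 with them. Among tested genes, the fifth with the highest abundance had a median log2 difference between high and medium of -0.061, and 24.7% of it was called lower, while the fifth with the highest GC content had 12.7% called lower and the fifth with the lowest GC content 8.07%. The part of abundance and GC content in the results was not tested. In bulk samples, fewer cells of a type and less RNA per cell cannot be told apart.

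Of the astrocyte markers, 4 of 9 had enough counts to be tested, and GFAP, S100B, AQP4, ALDH1L1 and FABP7 had at most 6 counts in any of the 12 libraries. The glutamate transporter SLC1A3 fell from 25.1, 25.2 and 25.4 CPM (counts scaled to a total of 1e6 per library, TMM-adjusted) at the medium dose to 18.1, 16.1 and 17.6 CPM at the high dose. SLC1A3 was the only 1 of the 4 called at this step, and 0 were called higher. The median log2 change of the 4 was 0.131. The summed level of the astrocyte markers overlapped, at 283.11 to 304.87 CPM against 263.35 to 291.38 CPM. Mesenchymal markers, which glioma lines often carry, were abundant, and 7 of 8 fell at the upper step. Their summed level was 4447.06 to 4783.36 CPM at the high dose and 6797.25 to 7044.01 CPM at the medium dose. Markers of other cell types included several at or near 0: MOG had no count and OLIG2 at most 6. Of the tested markers, 3 of 7 for neurons, 1 of 4 for oligodendrocytes, 2 of 5 for leukocytes, 0 of 3 for endothelium (1 at an unadjusted p under 0.05) and 1 of 3 for epithelium fell, and none rose by edgeR's test, at an unadjusted p or by DESeq2. Their summed levels at the high against the medium dose were 78.88 to 87.70 against 119.59 to 121.52 CPM for neuron markers and 88.52 to 100.40 against 132.60 to 151.59 CPM for oligodendrocyte markers. Leukocyte markers summed to 191.39 to 207.17 against 191.67 to 207.60 CPM, endothelial markers to 26.76 to 31.39 against 33.86 to 37.45 CPM, and epithelial markers to 255.02 to 265.89 against 420.88 to 450.18 CPM. Over all tested genes, 10.4% were called lower at this step and 7.18% higher. The lists hold 3 to 8 tested members each, so their counts are coarse beside these shares. The part of these markers in the results below was not tested.

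The upper step from 50 to 250 µg/mL changed 3133 of 17792 tested genes, 17.6%, by edgeR's quasi-likelihood test with Benjamini-Hochberg adjustment at a threshold of 0.05. Of these, 1278 rose (7.18% of tested genes) and 1855 fell (10.4%). Few changes were large: rises of 2-fold or more numbered 25 (0.141%) and falls of that size 64 (0.36%), and the median log2 difference over all genes was 0.0. The lower step, from 10 to 50 µg/mL, changed 1945 genes (10.9%), with 931 higher (5.23%) and 1014 lower (5.7%). Whether a gene moved differently between the steps was tested directly, as the difference between their log2 changes, called the change of slope here. It passed for 407 genes (2.29%), of which 68 (0.382%) bent upward and 339 (1.91%) bent downward at the upper step. Most downward bends were falls that came or steepened at the top dose. In 264 of the 339 the upper step was a fall, and in 164 of these the lower step did not pass its test. In another 65 of the 339 a rise at the lower step was followed by no called change. Leaving out 1 library of another extract, replicate 1 of the Liriopis high dose, gave 5182 genes at the upper step, 3653 at the lower and 1189 changes of slope. Without replicate 1 or replicate 3 of the medium dose, changes of slope numbered 208 and 232.

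Genes that moved the same way at both steps numbered 903, with 329 rising (1.85% of tested genes) and 574 falling (3.23%). The 2 steps share the medium libraries, which the change of slope accounts for and these counts do not. Genes that reversed, with both steps called in opposite directions, numbered 69 (0.388%). Of these, 50 peaked at the medium dose (0.281%) and 19 had their lowest level there (0.107%). For the level without extract, the medium dose differed from vehicle in 5356 genes (30.1%), 2707 higher (15.2%) and 2649 lower (14.9%), and the high dose in 8194 (46.1%), 4115 higher (23.1%) and 4079 lower (22.9%). Genes that changed by 2-fold or more at the upper step alone, with a changed slope and no call between medium and low dose or between medium and vehicle, numbered 4, all falls (0.0225%), and 0 rises (0.0%). DESeq2 gave 6 falls and 1 rise. Without the minimum of 2-fold, 10 genes rose and 89 fell by the same rule. Without Liriopis high dose replicate 1 the same classes held 1825, 196 and 9 genes, and without medium replicate 1 there were 45 reversals and 2 genes changed at the upper step alone. Without low dose replicate 2 there were 45 reversals.

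**Figure D1:**
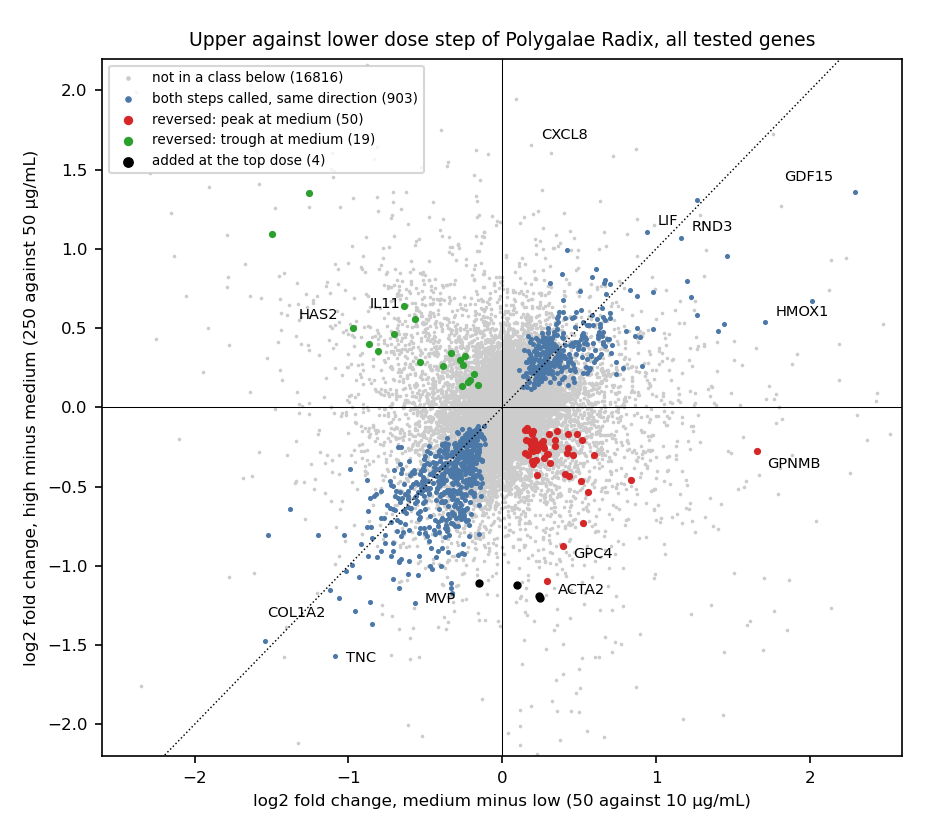
Log2 difference of each tested gene at the lower step (medium minus low dose, horizontal axis) against the upper step (high minus medium dose, vertical axis), with 1 grey point per gene and colours for the 903 genes that moved on, the 50 that peaked and 19 that dipped at the medium dose, and the 4 that changed at the upper step alone. The dotted line marks equal steps; both axes hold the medium libraries, so the slope of the cloud is not a result, and 99 genes lie outside the axes.

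The largest falls included matrix genes. TNC, which encodes the matrix glycoprotein tenascin C (ENSG00000041982, GRCh38 chr9:115019578-115118257, minus strand), had 244, 236 and 201 CPM at the medium dose and 89.8, 74.4 and 64.8 CPM at the high dose. The groups did not overlap. The log2 change was -1.57 ± 0.20, with an adjusted p of 2.4e-08 in edgeR's quasi-likelihood test. The error is an SE from the fit of all 60 libraries, with n = 3 per dose. COL1A2, the second chain of type I collagen (ENSG00000164692, chr7:94394561-94431232, plus strand), went from 665, 627 and 615 CPM to 280, 253 and 250 CPM. All 3 high libraries lay below all 3 medium libraries, with a log2 change of -1.28 ± 0.08 (adjusted p = 3.5e-17). Its partner chain COL1A1 fell from 1735, 1532 and 1712 CPM to 870, 854 and 803 CPM, and COL3A1, of type III collagen, from 12.9, 13.3 and 11.5 CPM to 5.12, 4.94 and 4.49 CPM. The fibronectin gene FN1 fell by less, with a log2 change of -0.72 ± 0.17 (adjusted p = 0.0018).

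Of 32 matrix genes tested, 30 fell and none rose at the upper step, and in all 32 the 3 high libraries lay below the 3 medium libraries, which held for 18.4% of all tested genes. For this and every list below, the shares over all tested genes were 7.18% higher and 10.4% lower at the upper step. At the lower step they were 5.23% and 5.7%, and for the change of slope 0.382% and 1.91%. A count near its share is no result about that list. The matrix list's median log2 change was -0.63, against 0.0 over all genes. Here and in the collagen, contractile, glycolysis, mitosis and reticulum export lists below, where edgeR called no rise at the upper step, 0 members were higher at an unadjusted p under 0.05 and 0 by DESeq2. LAMC1, at -0.41, and NID1, at -0.35, did not pass. The lower step had already lowered 25 of the 32, and a change of slope was called in 1 of them, FBLN1. That count was unstable, at 12 without Liriopis high dose replicate 1 and 0 without high replicate 3. Enzymes that modify and crosslink collagen fell in 17 of 21 (median -0.35), with none higher. Among them were PCOLCE, which enhances cleavage of the collagen propeptide, at -0.73, LOXL2, a crosslinking oxidase, at -0.67, and SERPINH1, the collagen chaperone, at -0.54. The lower step lowered 12 of the 21, and 7 without medium replicate 2. Integrins, the cell's matrix receptors, fell in 8 of 15 (5 without high replicate 3), while ITGB3 rose from 24.8, 23.1 and 18.4 CPM to 41.5, 36.7 and 37.5 CPM.

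The cell's contractile and filament genes behaved otherwise, since they changed mainly at the top dose. Of 15 tested, 14 fell at the upper step (median -0.58), but 2 fell and 1 rose at the lower step, and the slope turned downward in 7. At the lower step 4 fell without Liriopis high dose replicate 1, and 0 rose without medium replicate 3. Vimentin, VIM (ENSG00000026025, chr10:17228259-17237593, plus strand), an intermediate filament protein of mesenchymal and glial cells, had 4308, 4113 and 4243 CPM at the low dose and 3571, 3485 and 3600 CPM at the medium dose. At the high dose it had 1968, 1908 and 1744 CPM. The groups were separate at every dose, the upper step being -0.92 ± 0.05 and the lower -0.25 ± 0.05, and the change of slope was -0.67 with an adjusted p of 7.4e-07. The nuclear lamina gene LMNA had 496, 527 and 492 CPM at the low dose, 461, 452 and 452 CPM at the medium and 273, 246 and 251 CPM at the high dose. Its lower step of -0.15 did not pass (adjusted p = 0.13) and its upper step was -0.83 (adjusted p = 6.4e-14).

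The regulatory myosin light chain MYL9 gave 250, 245 and 265 CPM at the medium dose and 157, 169 and 166 CPM at the high dose, after a lower step of 0.02 (adjusted p = 0.95). Cytoplasmic actin ACTB, often used as a reference gene, fell by 0.58 on the log2 scale, with 7669, 7346 and 7566 CPM against 5145, 5135 and 4792 CPM. The nonmuscle myosin heavy chain MYH9, with 1689, 1740 and 1558 CPM against 760, 707 and 704 CPM, and the actin crosslinker FLNA, with 3168, 3048 and 2927 CPM against 1444, 1376 and 1383 CPM, both fell by more than 2-fold. Their changes of slope, -0.85 and -0.74, had adjusted p-values of 0.057 and 0.1 and did not pass. The actin-severing protein gelsolin, GSN, did pass, with an upper step of -1.17, a lower step of -0.32 and an adjusted p of 1.4e-06 for the change of slope. MYH9, FLNA and GSN were among the 15 largest falls of the upper step at 5 CPM or more.

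Glycolytic genes also bent downward at the top dose. Of 22 glycolysis and glucose transport genes, 16 fell and none rose at the upper step (median -0.41), while 5 fell and 4 rose at the lower step, and the slope turned downward in 13. At the lower step the falls numbered 3 without medium replicate 2 and 9 without Liriopis high dose replicate 1. PKM, pyruvate kinase (ENSG00000067225, chr15:72199029-72231822, minus strand), had 3043, 2846 and 2958 CPM at the low dose, 2434, 2298 and 2513 CPM at the medium dose and 1257, 1320 and 1230 CPM at the high dose. The upper step was -0.93 ± 0.04 against -0.29 ± 0.04 for the lower, and the change of slope of -0.64 had an adjusted p of 2.6e-08. Enolase, ENO1, fell from 2231, 2155 and 2249 CPM to 1235, 1262 and 1294 CPM after a lower step that did not pass (adjusted p = 0.06). GAPDH, another frequent reference gene, fell from 3333, 3072 and 3483 CPM to 2029, 2051 and 2068 CPM, a log2 change of -0.69. Not called at the upper step were 3 members that had risen at the lower step and 3 called at neither step. The glucose transporter gene SLC2A3 had risen by 0.49 at the lower step and was at -0.01 at the upper, and the enolase isoform ENO2 had risen by 0.65 and was at -0.12, neither passing at the upper step. SLC2A1, the main glucose transporter and 1 of the 16 falls, rose by 0.31 and then fell by 0.17. The call of that fall was lost without high replicate 1, medium replicate 1 or medium replicate 3.

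Transketolase, TKT, an enzyme of the pentose phosphate pathway that belongs to the NRF2 list, fell with glycolysis, from 494, 481 and 505 CPM to 345, 324 and 334 CPM. TKT had not moved at the lower step (0.03, adjusted p = 0.83), and its change of slope was -0.59 with an adjusted p of 8.7e-06. Nuclear genes of the respiratory chain fell in 10 of 30 (median -0.16), led by the ATP synthase subunit ATP5F1A at -0.58. Transcripts of the mitochondrial genome passed in 0 of 13 (median 0.16) and cytosolic ribosomal protein genes in 0 of 30 (median -0.10), both by edgeR's test. At an unadjusted p under 0.05, 1 of the 13 was higher and 2 of the 30 were lower, and DESeq2 called 0 and 1. Without Liriopis high dose replicate 1, however, 11 of the 30 ribosomal protein genes and 17 of the 30 respiratory chain genes were called lower, and with the Polygalae and vehicle libraries alone 7 and 15 were.

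**Figure D2:**
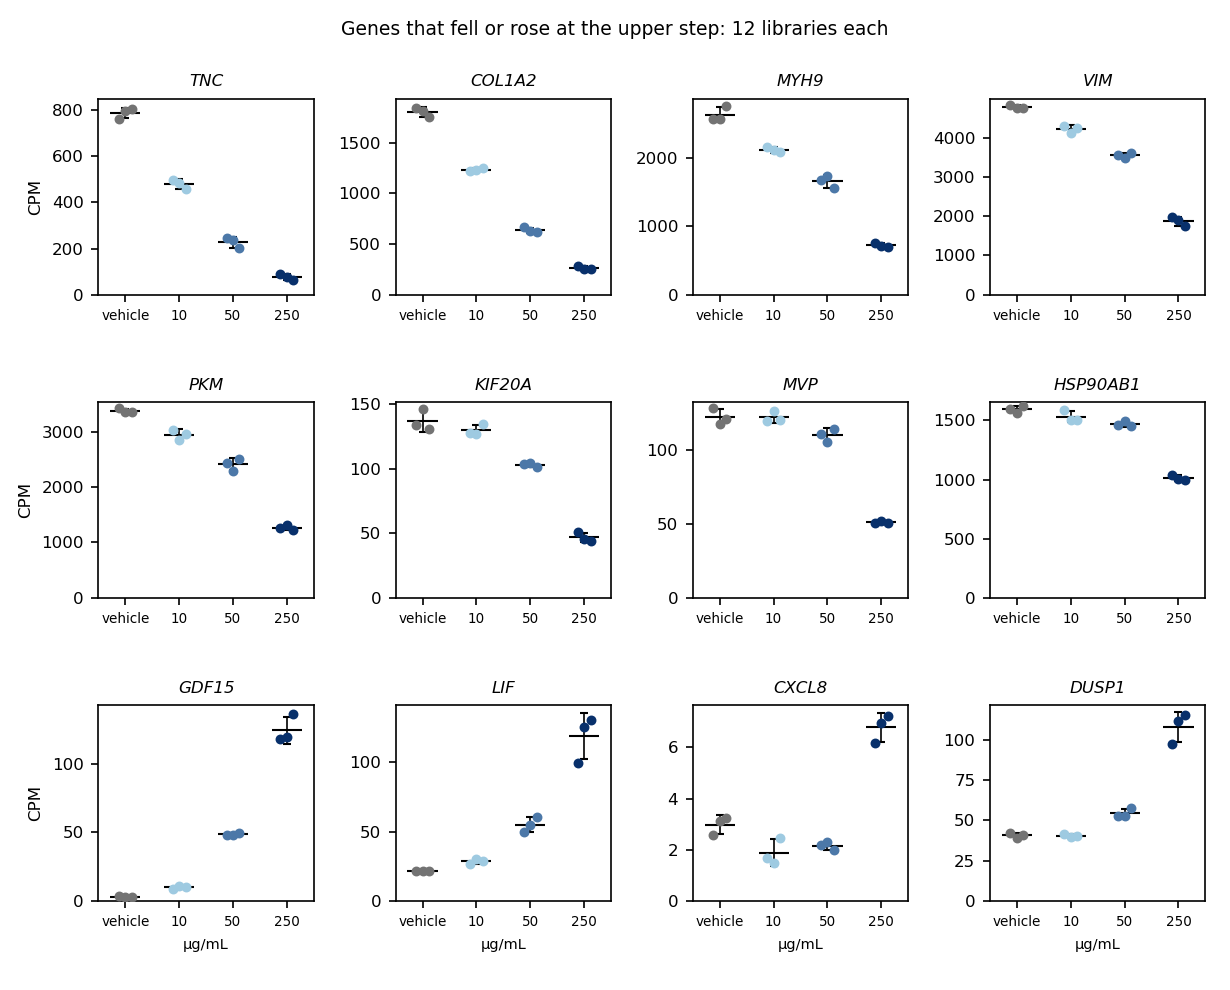
Level in CPM of 12 genes in the 12 libraries (vehicle, 10, 50 and 250 µg/mL), with 1 point per library, a bar for the mean and an error bar for the SD of 3 libraries. TNC and COL1A2 stepped down at every dose. MYH9, VIM, PKM, KIF20A, MVP and HSP90AB1 dropped mainly between 50 and 250 µg/mL, though the change of slope of MYH9 did not pass. GDF15, LIF, CXCL8 and DUSP1 rose between 50 and 250 µg/mL.

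Genes of mitosis fell in 24 of 31 at the upper step and rose in none (median -0.27), against 8 falls at the lower step (5 without low dose replicate 1) and 6 downward changes of slope (3 without medium replicate 2). KIF20A, a kinesin of the spindle midzone (ENSG00000112984, chr5:138178719-138187715, plus strand), had 128, 127 and 134 CPM at the low dose and 104, 104 and 101 CPM at the medium dose. It had 50.8, 45.6 and 43.7 CPM at the high dose, below every other extract library, a log2 change of -1.14 ± 0.08 (adjusted p = 9.2e-16). TOP2A, the topoisomerase that disentangles sister chromosomes, fell from 362, 438 and 354 CPM to 263, 234 and 233 CPM, and DLGAP5, a spindle assembly factor, from 85.5, 95.3 and 83.5 CPM to 57.8, 53.3 and 54.3 CPM. Not every mitotic gene moved. The kinase AURKA had 120, 125 and 120 CPM at the medium dose and 117, 118 and 124 CPM at the high dose, overlapping, with a log2 difference of -0.03 ± 0.04 (adjusted p = 0.73). CDK1, at -0.05, MAD2L1, at -0.01, and UBE2C, at 0.10, did not pass either.

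Mitotic genes share a promoter element, the cell cycle genes homology region, bound by complexes that repress them outside G2 and M phase. In windows of 250 bases before to 50 after the start (RefSeq, GRCh38.p14), its letters TTTGAA on either strand stood in 16 of the 23 mitosis genes with an entry, 69.6%, against 3542 of all 22114 promoters and 850 (9.83%) of the 8647 belonging to tested genes. These 3 windows are shown because their genes fell together at the upper step, by 0.54, 0.50 and 0.66 on the log2 scale (MAD2L1 and CENPA hold the letters too and did not pass) for KIF4A, a chromosome condensation kinesin, CDC20, the activator of the anaphase complex, and TOP2A. They lie at chrX:70290044-70290101 (plus strand), chr1:43358890-43358947 (plus) and chr17:40418016-40418073 (minus), and the match, in capitals, starts 34, 65 and 151 bases before the first transcribed base. The sequences run along the gene's strand, and TOP2A holds the match shown on the other strand. CDC20 and TOP2A each hold a further match, not shown, starting 178 and 194 bases before the first transcribed base. That of CDC20 is on the other strand and that of TOP2A on the gene's strand.
KIF4A: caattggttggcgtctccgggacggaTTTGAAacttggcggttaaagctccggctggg
CDC20: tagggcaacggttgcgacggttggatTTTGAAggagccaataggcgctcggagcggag
TOP2A: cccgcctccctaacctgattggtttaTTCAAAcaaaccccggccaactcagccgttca

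Genes of DNA replication and G1 did not follow the mitotic genes as a block. Among 32 replication and nucleotide synthesis genes, 12 fell and 6 rose at the upper step (median -0.03). LIG1, the replicative DNA ligase, fell from 21.3, 21.8 and 21.4 CPM to 14.7, 15.1 and 14.2 CPM, and MCM2, a subunit of the replicative helicase, from 41.9, 40.8 and 38.3 CPM to 29.1, 27.3 and 30.7 CPM, with no overlap. CDT1, which loads that helicase, rose from 36.1, 32 and 34.7 CPM to 44.1, 44.1 and 42.8 CPM. Of 19 G1 regulators, 6 rose and none fell by edgeR's test, at an unadjusted p or by DESeq2 (median 0.10), among them CCNE2, a cyclin of the G1 to S transition, from 20, 18.3 and 16.9 CPM to 25.4, 24.6 and 23.1 CPM, and CDKN1A, the cell cycle inhibitor p21, by 0.51. E2F1 rose by 0.31, a call lost without high replicate 1, medium replicate 1 or medium replicate 2. Without Liriopis high dose replicate 1, 3 of the 19 were called lower. Genes induced by p53 rose in 7 of 23 and fell in 3 (1 without medium replicate 3), MDM2, its ubiquitin ligase, being up by 0.38 and FDXR down by 0.59. Those 3 falls were near the share of all tested genes called lower, 10.4%.

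Chaperones of the endoplasmic reticulum went on falling. Of 24 tested, 12 fell and 2 rose at the upper step (median -0.18), after 9 falls at the lower step (14 without Liriopis high dose replicate 1), and the slope changed in none by edgeR's test (3 at an unadjusted p under 0.05, 0 by DESeq2). HSPA5, the master chaperone BiP (ENSG00000044574, chr9:125234853-125241330, minus strand), had 2453, 2186 and 2283 CPM at the low dose, 1480, 1542 and 1344 CPM at the medium dose and 952, 866 and 825 CPM at the high dose. The doses did not overlap and the steps were alike in size, -0.67 ± 0.06 and then -0.72 ± 0.06, with a change of slope of -0.06 ± 0.10. HSP90B1, the reticulum's HSP90, fell from 817, 875 and 824 CPM to 577, 550 and 542 CPM, and HYOU1, an exchange factor for BiP, from 302, 281 and 277 CPM to 193, 171 and 171 CPM. The risers were DNAJB9, a co-chaperone that restrains the sensor IRE1, from 23.6, 26 and 22.6 CPM to 33.4, 28.9 and 30 CPM, and ERN1, IRE1 itself, from 22.1, 20.6 and 20.4 CPM to 28.8, 26.6 and 26.3 CPM. Translocation and export genes fell in 13 of 28 and rose in none.

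The ER stress element, a composite site of the unfolded protein response, stood in 6 of the 19 chaperone promoters with an entry, 31.6%, against 0.0859% of all promoters and 0.139% of those of tested genes. The windows of HSPA5 and HSP90B1 are shown with the element in capitals, since both genes fell at each step. Of the other 4 with the element, CALR fell at the upper step, by 0.45, while CRELD2, SERP1 and ERO1B were called at neither step. The windows of HSPA5 and HSP90B1 lie at chr9:125241365-125241435 (minus strand) and chr12:103930295-103930365 (plus strand). The matches shown start 66 and 89 bases before the first transcribed base, that of HSP90B1 being on the other strand. HSP90B1 holds a further match on the gene's strand, not shown, starting 194 bases before that base.
HSPA5: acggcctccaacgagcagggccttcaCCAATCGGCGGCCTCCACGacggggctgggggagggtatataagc
HSP90B1: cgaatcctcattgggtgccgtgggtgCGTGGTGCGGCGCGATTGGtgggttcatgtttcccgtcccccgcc

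Cytosolic heat shock genes split. Of 20 tested, 6 rose and 6 fell at the upper step (median 0.03), where the lower step had raised 10 and lowered none (0 at an unadjusted p under 0.05 and by DESeq2). The constitutive chaperone HSP90AB1 fell from 1464, 1498 and 1449 CPM to 1040, 1001 and 996 CPM after a lower step of -0.06, and the slope changed by -0.48 (adjusted p = 0.00018). HSPA8, the constitutive HSP70, and STIP1, which links it to HSP90, rose at the lower step and fell at the upper, and both were back near vehicle. The rise of both was not called without low dose replicate 2, nor the fall of HSPA8 without high replicate 2 or medium replicate 2. STIP1 had 197, 196 and 185 CPM under vehicle, 224, 225 and 224 CPM at the medium dose and 193, 189 and 190 CPM at the high dose. The inducible members went the other way. DNAJB1 rose from 168, 147 and 163 CPM to 211, 214 and 213 CPM after a lower step of 0.06 that did not pass, and its slope rose by 0.36 (adjusted p = 0.016), which did not pass without medium replicate 2. HSPA1A and HSPA1B, inducible HSP70 genes of near-identical sequence whose reads can be exchanged, rose by 0.48 and 0.74.

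The largest rises included cytokines. CXCL8, the neutrophil chemokine interleukin 8 (ENSG00000169429, chr4:73740506-73743716, plus strand), had 1.68, 1.48 and 2.47 CPM at the low dose, 2.19, 2.29 and 1.98 CPM at the medium dose and 6.16, 6.95 and 7.24 CPM at the high dose. The high libraries stood above all others, while low and medium overlapped. The upper step was 1.65 ± 0.14 (adjusted p = 7.4e-13), the lower 0.18 ± 0.17 (adjusted p = 0.6), and the slope rose by 1.47 ± 0.27 (adjusted p = 0.00046). The medium dose was below vehicle by 0.47 on the log2 scale (adjusted p = 0.016), so CXCL8 crossed from below to above vehicle. LIF, a cytokine of the interleukin 6 family, rose from 49.6, 54.7 and 60.4 CPM to 99.7, 126 and 131 CPM, and IL6 itself from 6.53, 6.12 and 5.1 CPM to 10.1, 9.51 and 9.8 CPM. Both had risen at the lower step too, though the call for IL6 was lost without any 1 of 5 libraries, medium replicates 1 and 2 and the 3 low dose replicates. Of 21 genes of NF-kB signalling and cytokines, 10 rose and 2 fell (median 0.44), while the pathway's own inhibitor gene NFKBIA, at 0.18, did not pass. The 2 falls, NFKB2 at -0.19 and TNFAIP2 at -0.22, numbered 0 without high replicate 1, at most 1 with any other high or medium library left out, and 0 with no filter on low counts. TNFAIP3, a feedback inhibitor, rose by 0.44.

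GDF15, a stress cytokine of the TGF-beta superfamily (ENSG00000130513, chr19:18374731-18389176, plus strand), had 8.82, 11 and 9.82 CPM at the low dose, 47.8, 48.1 and 49.4 CPM at the medium and 118, 120 and 136 CPM at the high dose. The doses were well apart. The upper step of 1.36 ± 0.12 was smaller than the lower of 2.29 ± 0.13, and the slope fell by 0.93 (adjusted p = 0.004). HMOX1, heme oxygenase, slowed more, from 199, 224 and 208 CPM over 704, 674 and 686 CPM to 999, 1021 and 978 CPM, with a lower step of 1.71, an upper step of 0.54 and a change of slope of -1.17 (adjusted p = 1.7e-06).

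NRF2 targets rose in 13 of 29 and fell in 5 at the upper step (median 0.20), after 15 rises and 1 fall at the lower step (0 falls without medium replicate 1), and the slope fell in 6. The 5 falls numbered 3 without high replicate 1 and 8 without Liriopis high dose replicate 1, and the 6 changes of slope 3 without medium replicate 2 and 12 without that Liriopis library. SRXN1, which repairs oxidised peroxiredoxins, gained 0.70 at the lower step and 0.78 at the upper, from 184, 180 and 187 CPM to 303, 304 and 340 CPM. TXNRD1, thioredoxin reductase, rose from 648, 676 and 639 CPM to 990, 961 and 1019 CPM. Genes of the ATF4 amino acid response rose in 5 of 31 and fell in 11, so the list moved both ways: the factor ATF4 rose by 0.30 and ATF3 by 0.63, while the serine synthesis enzymes PHGDH and PSAT1 fell by 0.79 and 0.41. The 5 rises numbered 3 without high replicate 1 and 8 without Liriopis high dose replicate 1, and the call for ATF4 was lost without any 1 of 4 libraries, high replicates 2 and 3 and medium replicates 1 and 2.

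Feedback genes of ERK signalling rose in 8 of 15 and fell in none by edgeR's test (median 0.22), while 1 was lower at an unadjusted p under 0.05, by DESeq2 and without Liriopis high dose replicate 1. The phosphatase DUSP6, which inactivates ERK, had 17.6, 20.1 and 21.4 CPM at the low dose, 23.1, 24.5 and 25.6 CPM at the medium and 35.2, 45.2 and 45.9 CPM at the high dose. The slope rose by 0.48 (adjusted p = 0.028), and DUSP6 was the only member with a called change of slope, which was lost without any 1 of 6 libraries, replicates 2 and 3 of the high dose, 1 and 2 of the medium and 2 and 3 of the low. Of 23 immediate early genes, 7 rose (4 without high replicate 1) and none fell by edgeR's test, at an unadjusted p or by DESeq2. DUSP1, a phosphatase that acts mainly on p38 and JNK, rose from 52.7, 52.8 and 57.6 CPM to 97.3, 112 and 115 CPM, and its slope rose by 0.57 (adjusted p = 0.0024). JUN rose from 207, 202 and 185 CPM to 341, 258 and 279 CPM. EGR1 did not pass, and its libraries were uneven, with 248, 98.9 and 121 CPM at the medium and 297, 120 and 140 CPM at the high dose, replicate 1 being highest at both. RND3, a small GTPase that loosens actin fibres, rose from 250, 311 and 272 CPM to 549, 603 and 598 CPM. INHBA, the activin A subunit, rose from 93.7, 116 and 99 CPM to 195, 181 and 178 CPM.

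**Figure D3:**
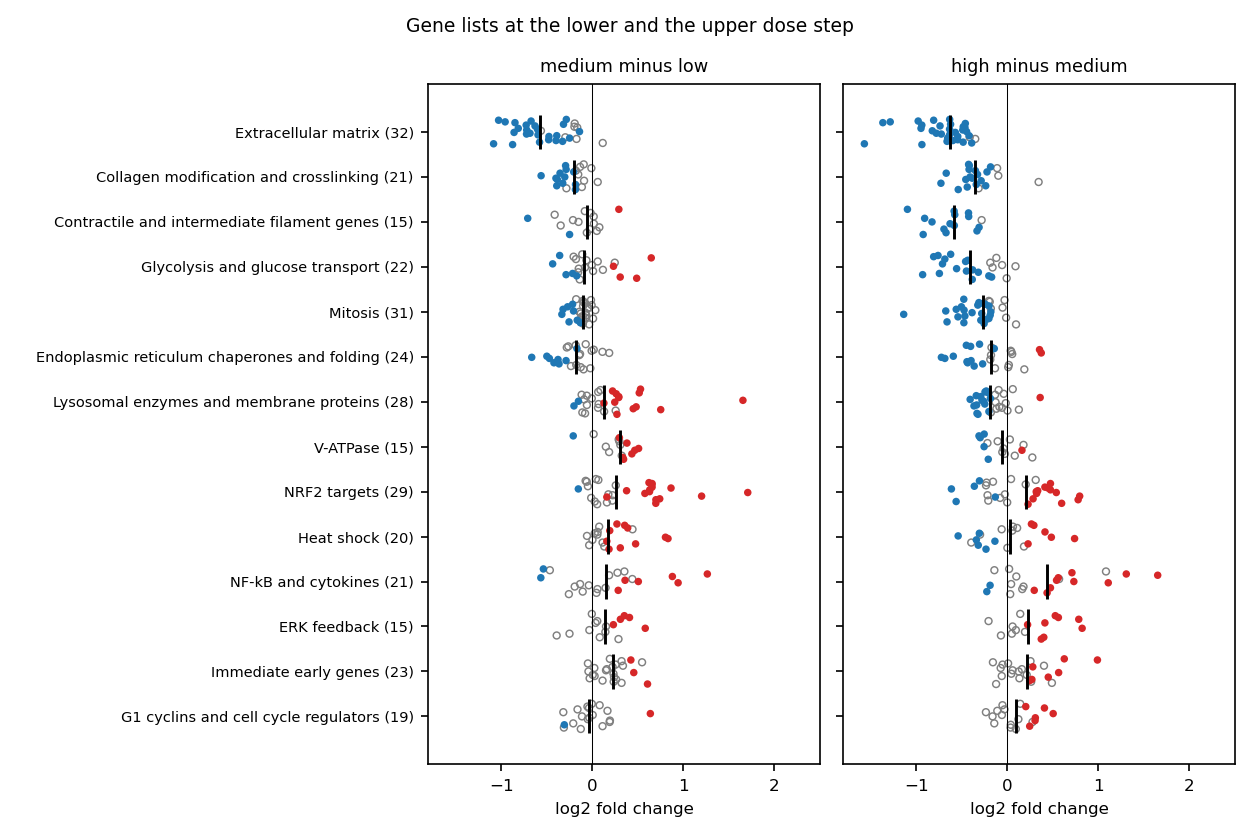
Log2 differences of the tested members of 14 gene lists at the lower step (medium minus low) and the upper step (high minus medium), with filled points for members that passed the test (red higher, blue lower), open points for the others and a black bar at each list's median. All 32 matrix genes lay below 0 at the upper step, contractile and glycolytic genes moved down mainly at the upper step, and lysosomal genes had a median of 0.13 at the lower step and -0.19 at the upper.

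Of the 4 genes that changed by 2-fold or more at the upper step alone, MVP had over 5 CPM. MVP encodes the major vault protein (ENSG00000013364, chr16:29820394-29848039, plus strand), the shell of a large cytoplasmic ribonucleoprotein. It had 129, 118 and 121 CPM under vehicle, 120, 126 and 121 CPM at the low dose and 111, 105 and 114 CPM at the medium dose. At the high dose it had 50.9, 52 and 50.7 CPM, far below all of them. The upper step was -1.11 ± 0.07 (adjusted p = 3.2e-16), the lower -0.15 ± 0.07 (adjusted p = 0.21) and the change of slope -0.96 ± 0.12 (adjusted p = 6.6e-07). The other 3 had lower levels, under 5 CPM at both the medium and the high dose. LMOD1, a smooth muscle actin nucleator, had 2.85, 3.17 and 3.12 CPM at the medium dose and 1.64, 1 and 1.33 CPM at the high dose. IRAG1, which couples cyclic GMP to calcium release, had 2.5, 2.64 and 3.5 CPM and then 1.52, 1.49 and 0.916 CPM. PRRT2, a synaptic membrane protein, had 1.92, 1.44 and 2.23 CPM and then 0.853, 0.669 and 0.916 CPM. Without medium replicate 1, the rule held 2 genes in place of 4.

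Several large falls of the upper step are uncertain. C4A fell by 1.46, but its paralog C4B is nearly identical. The readthrough gene ATP6V1G2-DDX39B fell by 1.47 (adjusted p = 0.014) and did not pass without high replicate 2, and it shares exons with its neighbours. Of the 30 largest rises and falls named by the rule, it was the only gene that lost its call in any of the 12 alternatives tried per gene.

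Reversals included genes of the lysosome. Of 28 lysosomal enzymes and membrane proteins, the lower step raised 13 and lowered 2 (median 0.13), and the upper step lowered 15 and raised 1 (median -0.19). The slope fell in 12 of the 28 (5 without medium replicate 3), and 5 peaked at the medium dose with both steps called. The 2 falls at the lower step numbered 1 without medium replicate 1, and the 1 rise at the upper step 2 without Liriopis high dose replicate 1. For V-ATPase subunits the lower step raised 7 of 15 and lowered 1 (median 0.31), the upper step raised 1 and lowered 5 (median -0.05), and the slope fell in 6 (2 without medium replicate 1). Without Liriopis high dose replicate 1 the lower step raised 13 of the 15 and the upper step raised 3, and without high replicate 1 the upper step raised 0. The upper step thus took back part of a rise in some members and left it standing in others.

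GPNMB, a transmembrane glycoprotein of stressed lysosomes (ENSG00000136235, chr7:23235967-23275108, plus strand), had 10.7, 9.75 and 8.57 CPM under vehicle, 18.6, 20.5 and 19.2 CPM at the low dose and 61.3, 61.1 and 60.9 CPM at the medium dose. It had 50.9, 50.3 and 50.1 CPM at the high dose. The 3 doses did not overlap, and the top dose stayed far above vehicle. The lower step was 1.66 ± 0.08, the upper -0.28 ± 0.07 (adjusted p = 0.0039), and the slope fell by 1.93 (adjusted p = 1.2e-15). The protease cathepsin D, CTSD, had 360, 383 and 391 CPM at the low dose, 550, 504 and 569 CPM at the medium and 455, 491 and 461 CPM at the high dose, with an upper step of -0.21 (adjusted p = 0.021). That fall was not called with no filter on low counts or without any 1 of 4 libraries, replicates 1 and 3 of the high and of the medium dose.

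For other members the upper step returned the level to about that of the low dose. TPP1, a lysosomal peptidase, had 209, 223 and 211 CPM under vehicle, 241, 215 and 234 CPM at the low dose, 284, 271 and 277 CPM at the medium and 226, 224 and 216 CPM at the high dose. Low and high overlapped, and the steps were 0.27 ± 0.08 and -0.32 ± 0.08, of which the first was not called without medium replicate 1, medium replicate 3 or low dose replicate 2. The protective protein CTSA had 387, 361 and 392 CPM, then 449, 409 and 471 CPM, then 357, 385 and 392 CPM. At the high dose CTSA was still called above vehicle, by 0.139 on the log2 scale (adjusted p = 0.017 by edgeR's test). TPP1 and ATP6V0A1 were not. ATP6V0A1, the membrane subunit of the V-ATPase that carries its proton path, had 84, 78.5 and 79.9 CPM, then 103, 93 and 102 CPM, then 77.4, 85.2 and 80.2 CPM. Its steps were 0.30 ± 0.06 and -0.30 ± 0.06, and the slope fell by 0.59 (adjusted p = 0.0001).

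Other members kept their rise. The acid ceramidase ASAH1 had 82.7, 81.3 and 84.5 CPM at the low dose, 115, 126 and 118 CPM at the medium and 125, 123 and 127 CPM at the high dose, its upper step of 0.06 ± 0.05 not passing. The pump's nucleotide-binding subunit ATP6V1B2 had 129, 127 and 125 CPM, then 182, 179 and 180 CPM, then 169, 182 and 176 CPM. NPC1, the cholesterol exporter of the lysosome, rose by 0.75 at the lower step and was at 0.13 at the upper, which did not pass. GLA, the galactosidase, was the only lysosomal enzyme to rise at the upper step, from 65, 66.4 and 69.1 CPM to 81.7, 81.8 and 94.4 CPM. Still others fell at the upper step without an earlier rise, among them the membrane protein LAMP2, by 0.34. Autophagy genes rose in 7 of 30 and fell in 4 (3 and 1 in the lowest count without 1 library, high replicate 3 and high replicate 2 respectively, and 9 falls without Liriopis high dose replicate 1). The 4 falls were near the share of all tested genes called lower, 10.4%. RRAGD, a GTPase that signals from the lysosome to mTORC1, went from 4.26, 3.69 and 3.47 CPM to 6, 5.35 and 6.83 CPM, and the receptor SQSTM1 from 1876, 1863 and 1941 CPM to 2145, 2199 and 2242 CPM. Both rises depended on single libraries: that of RRAGD was not called without high replicate 3, medium replicate 2 or medium replicate 3, and that of SQSTM1 without high replicate 2 or 3 or medium replicate 1 or 2.

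The core of the CLEAR element, the site through which TFEB and TFE3 act on lysosomal genes, has the letters CACGTGAC. On either strand it stood in 5 of the 16 lysosomal promoters with an entry (31.2%) and 3 of the 8 V-ATPase promoters (37.5%), against 2.51% of all promoters and 4.66% of those of tested genes. As the letters are nearly a palindrome, a match can overlap a match on the other strand. The 8 genes with the core did not move alike. CTSA and CTSD rose at the lower step and fell at the upper, and MCOLN1, a lysosomal calcium channel, and ATP6V0D1 rose at the lower step with no called fall. LAMP1 had 6 matches that do not overlap, and GAA had 4 that overlap in pairs on opposite strands. These genes were at 0.07 and -0.06 at the lower step, not passing, and fell by 0.25 and 0.34 at the upper. ATP6V0B was called at neither step, and ATP6V1G1 rose at the lower step and was at 0.28 at the upper, which did not pass. The windows of 3 of the 8 are shown as examples that rose at the lower step and had a downward change of slope, a call that ATP6V0D1 lost without any 1 of 6 libraries (replicates 1 and 2 of the high, 1 and 3 of the medium, 2 and 3 of the low dose) and CTSA without medium replicate 3. They lie at chr20:45891265-45891324 (plus strand), chr11:1763941-1764000 (minus) and chr16:67481185-67481244 (minus), with the match in capitals starting 44, 47 and 61 bases before the first transcribed base. CTSA and ATP6V0D1 hold it on the other strand, and CTSA holds another copy further on in lower case.
CTSA: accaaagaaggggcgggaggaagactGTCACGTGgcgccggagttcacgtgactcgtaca
CTSD: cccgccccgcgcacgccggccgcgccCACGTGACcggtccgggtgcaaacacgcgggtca
ATP6V0D1: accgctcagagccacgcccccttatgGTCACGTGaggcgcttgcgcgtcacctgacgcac
ATP6V0D1, the subunit that joins the pump's parts, had 116, 101 and 109 CPM at the low dose, 146, 127 and 152 CPM at the medium and 118, 121 and 126 CPM at the high dose, and its upper step of -0.22 did not pass (adjusted p = 0.12).

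**Figure D4:**
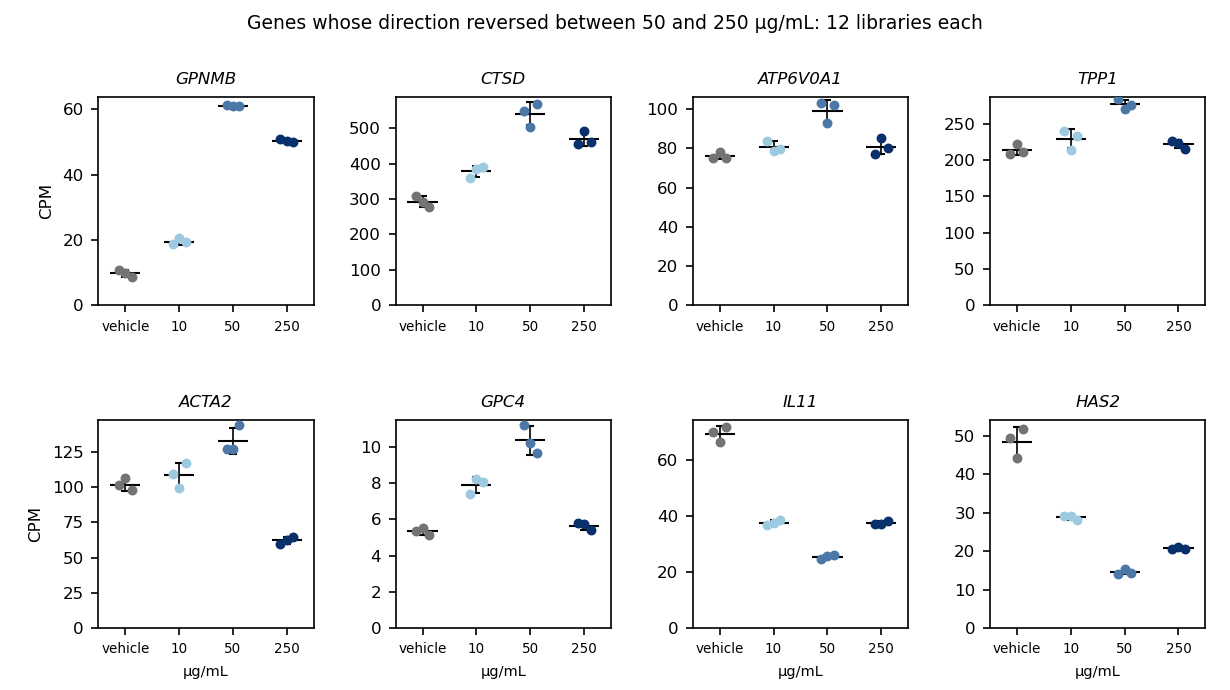
Level in CPM of 8 genes that reversed, in the 12 libraries (vehicle, 10, 50 and 250 µg/mL), with 1 point per library, a bar for the mean and an error bar for the SD of 3 libraries. GPNMB, CTSD, ATP6V0A1, TPP1, ACTA2 and GPC4 were highest at 50 µg/mL among the 3 doses, and IL11 and HAS2 were lowest there.

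Outside the lysosome, reversals included ACTA2, smooth muscle actin (ENSG00000107796, chr10:88935074-88991339, minus strand). It had 101, 107 and 97.9 CPM under vehicle, 109, 99.5 and 117 CPM at the low dose, 127, 128 and 144 CPM at the medium and 59.4, 62.5 and 64.8 CPM at the high dose. The high dose thus fell below vehicle as well, by 0.71 on the log2 scale (adjusted p = 1.2e-11). The steps were 0.29 ± 0.07 (adjusted p = 0.0032) and -1.10 ± 0.07 (adjusted p = 2.3e-16), the first not called without medium replicate 3 or low dose replicate 2. GPC4, a heparan sulfate proteoglycan that binds growth factors, had 7.38, 8.22 and 8.07 CPM, then 11.2, 10.2 and 9.68 CPM, then 5.81, 5.72 and 5.41 CPM. VAT1, a vesicle membrane protein, had 191, 191 and 185 CPM, then 258, 232 and 262 CPM, then 186, 193 and 184 CPM, so that low and high overlapped. WASHC2A, a subunit of the WASH complex that sorts endosomal cargo, returned likewise, from 163, 176 and 147 CPM at the medium dose to 127, 114 and 119 CPM, but has a close paralog, WASHC2C, that peaked too, its fall not called without high replicate 2 or medium replicate 2.

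Genes lowest at the medium dose included secreted signals. IL11, a cytokine of the interleukin 6 family (ENSG00000095752, chr19:55364389-55370463, minus strand), had 70.1, 66.4 and 71.7 CPM under vehicle, 36.7, 37.5 and 38.5 CPM at the low dose, 24.6, 25.6 and 26 CPM at the medium and 37.1, 37.2 and 38.1 CPM at the high dose. Low and high overlapped and both lay below vehicle. The steps were -0.56 ± 0.07 and 0.56 ± 0.07, and the slope rose by 1.13 (adjusted p = 4.6e-09). HAS2, which makes hyaluronan, had 29.1, 29.3 and 28 CPM, then 14.2, 15.4 and 14.4 CPM, then 20.6, 21.1 and 20.7 CPM, a partial return. HBEGF, a ligand of the EGF receptor, had 21.3, 19 and 19.9 CPM, then 17.6, 16.4 and 15.9 CPM, then 20.6, 20.2 and 20.4 CPM, its fall at the lower step not called without low dose replicate 1. TSLP, an epithelial-type cytokine, went from 5.08, 5.8 and 5.67 CPM to 7.26, 7.73 and 6.09 CPM after a lower step of -0.81. Its upper step was not called without high replicate 1, high replicate 2 or medium replicate 1, nor with no filter on low counts.

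Across the 50 genes that peaked, the high dose was still called above vehicle in 23, below it in 2 and not called in 25. Across the 19 lowest at the medium dose, the high dose was still below vehicle in 12 and not called in 7. Both steps chose these genes, so their changes of slope are no further support. In 17 of the 69 both steps passed in every alternative, among them GPNMB, CTSA, GRN, ATP6V0A1, VAT1, GPC4, IL11 and HAS2. In no alternative did the upper step of any of the 69 take the other sign. As the alternatives reuse most of the same libraries, that is no further support either.

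Interferon-stimulated genes rose on at the upper step in 7 of 28 and fell in 1, after 13 rises (8 without low dose replicate 1) and no fall at the lower step, also at an unadjusted p or by DESeq2. The count of 7 rested on single libraries: it was between 1, without high replicate 3, and 11 when 1 high or medium library was left out. IFIT2, an antiviral RNA-binding protein, rose by 0.49, not called without high replicate 3 or medium replicate 3.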

How the data were processed

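RNA from 60 SW1783 samples was sequenced as directional, paired-end messenger RNA libraries, per the labels' protocols. Per the submitters' processing notes, the authors processed reads against GRCh38 with RSEM 1.3.3, STAR 2.7.3a, Trim Galore 0.6.5 and FastQC 0.11.9. For the annotation release and strand setting, nothing is stated in the labels or file headers, and libraries with little RNA were excluded before deposit, per the series text. The authors deposited expected counts for 60675 identifiers, 11.02% of them not whole, which were rounded. Gene coordinates are from GENCODE release 29.

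All 60 libraries entered an edgeR 4.0.16 quasi-likelihood fit (R 4.3.3) with 1 mean per group, TMM scaling and filterByExpr at a minimum count of 10, which left 17792 genes and 40 residual degrees of freedom. Calls have a Benjamini-Hochberg adjusted p under 0.05. CPM are TMM-scaled. Errors are SE, taken as the absolute log2 change over the square root of the test's F. The script was tested on simulated data. Named genes were the 15 largest rises and falls at 5 CPM or more without overlap, the 10 most reversed in each shape, the genes changed at the upper step alone, 4 members per list with the smallest p and 4 genes reported earlier; other members were named after their values were seen. The members and the 45 gene lists were chosen with earlier results of these data known. Of the named genes, 174 of 205 were called, 147 of them in every alternative. Alternatives were DESeq2 1.42.0, its size factors, no filter, fewer libraries, a replicate block and each library left out. Replicate numbers did not pair high and medium libraries (correlations of deviations 0.156, -0.365 and 0.354). Between high and medium libraries of other numbers, the correlations ran from -0.628 to 0.492. Their source was not tested. Replicates differed by more than sampling noise, with chi-square per gene of 3.48 to 15.85. Some genes are counted in the lists but not reported by name here.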

Additional observations from a re-analysis of the deposited data

How the results depend on the processing

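The counts of changed genes depended on the libraries and genes in the fit. None of the 3133 genes called at the upper step and 1945 at the lower took the other sign in any of 12 alternatives, nor any of the 407 called changes of slope in any of 15. The alternatives reuse most of the same libraries, so a called gene could hardly change sign there. This is therefore no further support. Without the Liriopis high dose replicate 1 library, 5182 genes changed between high and medium, 3653 between medium and low, and 1189 changed slope. The same fit gave 9 genes changed at the upper step alone, 196 reversals and 1825 genes that moved on. With no filter on low counts, 1199 genes changed between medium and low, 184 changed slope, 26 reversed and 518 moved on. With only the Polygalae and vehicle libraries, 115 reversed and 1364 moved on. With vehicle in place of the low dose as lower reference, 187 reversed and 1677 moved on. DESeq2 gave 7 genes changed at the upper step alone, and 99 met that rule without a minimum fold. The cause of these shifts was not tested. With a replicate block, 2930 genes changed between high and medium, and medium against vehicle gave 2680 genes in place of 5356. The block was fitted within libraries whose names start alike, and vehicle is the only group with its start. The vehicle level in that fit therefore rested on replicate 1 alone. The count of 2680 thus cannot show whether the comparison with vehicle depends on blocking, and no conclusion is drawn from it. Replicate numbers do not pair the high and medium libraries, so between these doses the block is only 1 more setting. Leaving out each library in turn gave 2351 to 2625 genes between high and medium, 1400 to 1597 between medium and low, and 208 to 366 changes of slope. It gave 4486 to 4660 genes between medium and vehicle, 7352 to 7510 between high and vehicle, 2 to 6 changed at the upper step alone, 45 to 58 reversals and 610 to 800 that moved on. With 2 libraries left in a dose, the spread was taken from all groups. Of the 69 reversals, 41 to 56 were kept when 1 library was left out and 25 with no filter. Of the named calls, 27 were lost in at least 1 alternative. None changed sign, with the same limit as above.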
